A study of Mus musculus with 100 samples.

Results

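Prefrontal cortex of adult mice heterozygous for a Myt1l frameshift allele (HET) was compared with that of wild-type mice (WT) by bulk RNA sequencing. The comparison was defined by sequencing batch: it took the 3 HET animals (B57, B70, B72) and 3 WT animals (B58, B76, B78) of batch 1, which make up 6 of the 53 mice and 12 of the 100 libraries counted in the mouse series. Each group held 2 females and 1 male (males B70 and B78) at 3 months of age, and the labels give the strain as C57BL/6J, whereas the study's methods describe zygotes and breeding partners of the substrain C57BL/6N. The HET animals carried 1 germline copy of a CRISPR-made deletion of 7 bp in exon 6 of Myt1l, for which the labels state that the transcript escapes nonsense-mediated decay, and the WT animals carried none. The labels name no treatment for either group. A further 3 adult HET animals were sequenced in batch 3 without any adult WT animal, so that batch and genotype cannot be told apart in them, and they were used only as a check.

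MYT1L is a zinc finger transcription factor of the MYT family and a marker of the neuronal lineage. It acts largely as a repressor and is best known for silencing genes of other lineages while a cell becomes and stays a neuron. Loss of 1 copy of the human gene causes a neurodevelopmental syndrome with intellectual disability and autism, and the adult comparison asks what 1 mutant copy leaves behind once the cortex is mature. In bulk tissue, fewer cells of a type and less RNA per cell cannot be told apart.

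The deletion lies just after the first coding bases of Myt1l, which the files place at chr12:29528384-29923213 (mm10, forward strand). The 2 alleles are shown because they define the groups, as the first 55 coding bases of exon 6 in the reference (GRCm38, chr12:29783621-29783675, forward strand) and the 48 bases left by the deletion. Capitals mark the 7 deleted bases (chr12:29783648-29783654) in the reference and the bases on either side of the junction in the deletion allele.
Myt1l wild type: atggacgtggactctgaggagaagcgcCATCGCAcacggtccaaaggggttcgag
Myt1l deletion allele: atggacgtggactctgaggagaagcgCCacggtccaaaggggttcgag
Because of repeated bases, 3 placements of the deletion give the same sequence, and the first deleted base is base 28 of the coding sequence in the placement shown. Read in the shifted frame, the coding sequence of 1187 codons met a stop at codon 78.

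Between 41.94 and 60.98 Mreads were counted per animal after summing both libraries of an animal, and 18679 of the 55483 genes passed the filter on low counts. Markers of the labelled tissue were present in every animal, at 1451 to 1696 CPM (counts scaled to the library size in Mreads and to the trimmed mean of M-values) for Slc17a7, the vesicular glutamate transporter of cortical neurons, and at 68.9 to 100.5 CPM for Neurod6, a transcription factor of cortical excitatory neurons. Sex-linked transcripts matched the sex label in all 9 adults. The male WT animal B78 stood apart from the others: on the first principal component, which held 36.9% of the variance, B78 lay at 37.65 and the male HET animal B70 at 15.36, while the 4 females lay between -15.42 and -11.95. Because sex was a covariate, leaving out either male left the other without a partner of its sex, and both of these settings then compared the same 4 females.

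No gene was called between adult HET and WT by edgeR's quasi-likelihood test with sex as covariate (adjusted p under 0.05, 0% of 18679 genes, smallest adjusted p = 0.529). At an unadjusted p under 0.05 there were 1311 genes (7.02%), of which 552 were higher (2.96%) and 759 lower (4.06%) in HET, where 934 are expected of tests without any difference. Fold changes were small, with an interquartile range over all genes of -0.08 to 0.07 on the log2 scale. The groups did not overlap in log2 CPM for 2223 genes (11.9%), with 1099 higher (5.88%) and 1124 lower (6.02%). DESeq2 called 31 of the 14137 genes that it tested (0.219%), 15 higher and 16 lower in HET, with 756 at an unadjusted p under 0.05. Of these 31 genes, 28 had groups that did not overlap, but they were called from the same animals, so this describes the choice. The genes described in the following paragraphs are given by their values in each animal, and a difference is said to be called only where DESeq2 called it, since edgeR called none.

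Myt1l itself, which is the targeted gene, was measured at 245 (B57), 241 (B72) and 236 CPM (B70) in HET and at 234 (B58), 236 (B76) and 212 CPM (B78) in WT. The groups overlapped, and the lowest value was that of the male WT animal B78. The log2 fold change was 0.08 ± 0.04 (SE, n = 3 against 3, adjusted p = 0.732), and an exact 2-sided permutation test of log2 CPM gave p = 0.20, where 0.10 is the smallest p that 3 against 3 animals allow. Reads that cover the deletion were not analysed here, so the values count the transcripts of both alleles together and the level of Myt1l does not check the genotype labels. At postnatal day 22 (P22), the HET effect on Myt1l was 0.34 ± 0.07 in the 6 animals of batch 1 and 0.33 ± 0.04 in the 12 animals of both batches, where Myt1l was the 1 gene called (adjusted p = 0.0352).

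Its relatives were low in this tissue. Myt1, known from neuronal and oligodendrocyte precursors, was at 6.97, 5.46 and 5.94 CPM in HET (B57, B72, B70) and at 6.22, 6.60 and 6.39 CPM in WT (B58, B76, B78), with overlapping groups and a log2 fold change of -0.06 ± 0.11. St18, also named Myt3, was at 3.11, 3.02 and 3.48 CPM in HET and at 2.77, 2.83 and 2.82 CPM in WT. All 3 HET animals of batch 1 were above all 3 WT animals for St18, but the difference of 0.19 ± 0.12 was not called (adjusted p = 0.786), and the batch 3 HET animals were lower, at 1.05 to 1.94 CPM when the 9 adults were scaled together. In the same scaling, Myt1l was at 182.7, 193.5 and 223.1 CPM in the batch 3 animals.

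**Figure D1:**
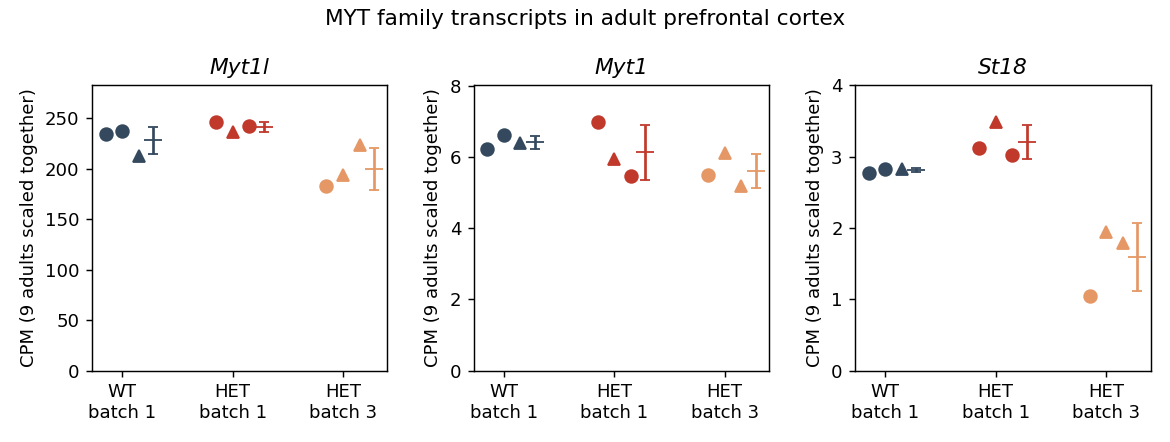
CPM of Myt1l, Myt1 and St18 (vertical axes, 9 adults scaled together) in WT and HET animals of batch 1 and HET animals of batch 3; circles are females, triangles males, and bars give the mean ± SD of 3 animals. Myt1l overlaps between genotypes in batch 1, and the batch 3 animals are lower in Myt1l and St18 than the HET animals of batch 1.

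A short list of genes that the study follows in its MYT1L models, some as targets and some as markers of progenitors or neurons, held no called gene in the adult cortex. Of 8 tested, 6 were above 0 and 2 below, with a median log2 fold change of 0.05 against -0.00045 over all genes. Leaving out 1 animal moved this median between 0.16 (without B70 or B78) and -0.04 (without B72), and it was also below 0 without B58 (-0.01). Sox9, a transcription factor of astrocytes and glial progenitors, was at 27.2, 28.2 and 21.6 CPM in HET (B57, B72, B70) and at 23.5, 22.8 and 17.8 CPM in WT (B58, B76, B78). Both males were the lowest of their genotype, and the groups overlapped because the HET male B70 lay below the WT females. The difference given sex was 0.27 ± 0.06 (adjusted p = 0.529). Sox2, a factor of neural progenitors that mature astrocytes keep, differed by 0.20 ± 0.08 (adjusted p = 0.688). Hes1, the effector of NOTCH signalling, differed by 0.09 ± 0.10. Tfap2b, a transcription factor of the neural crest, was under 1 CPM in every animal and differed by -0.27 ± 0.46. Eomes, which marks intermediate progenitors, had 1 read in HET and 2 in WT over all animals and was not tested.

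The NOTCH and WNT pathways, which the study ties to MYT1L, had medians close to that of all genes (-0.00045). In the NOTCH pathway 10 of 26 genes were above 0 and 16 below (median -0.02), with 2 higher and 1 lower at an unadjusted p under 0.05. Lfng, a glycosyltransferase that modifies NOTCH receptors, was at 20.2, 18.8 and 20.5 CPM in HET and at 14.2, 17.5 and 17.2 CPM in WT without overlap (0.28 ± 0.08, adjusted p = 0.604). In the WNT pathway 20 of 50 genes were above 0 and 30 below, with 2 in each direction at an unadjusted p under 0.05. The WNT median was -0.03, and 0.00435 without B70, which compares the females alone. Cell cycle genes had 18 members above 0 and 14 below. Genes of radial glia and new neurons had 15 above and 8 below with a median of 0.04, and 2 higher and 0 lower at an unadjusted p under 0.05. Over all genes 2.96% were higher and 4.06% lower at this threshold.

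The genes with the smallest p-values in each direction were few and modest in size. Pcsk1n, which encodes proSAAS, a precursor that inhibits a prohormone convertase, was at 325, 384 and 376 CPM in HET (B57, B72, B70) and at 290, 273 and 247 CPM in WT (B58, B76, B78). Every HET animal of batch 1 was above every WT animal. The difference of 0.42 ± 0.07 was called by DESeq2 (adjusted p = 6.66e-05). Cplx2, complexin 2, which binds SNARE complexes at the synapse, was at 1816, 1950 and 1890 CPM against 1640, 1614 and 1555 CPM, also without overlap and also called by DESeq2 (0.23 ± 0.05). Sparc, a secreted matricellular glycoprotein, was at 195, 189 and 212 CPM against 166, 168 and 176 CPM, and DESeq2 called this difference too (0.22 ± 0.04). Lypd1, a membrane-anchored modulator of nicotinic receptors, was at 61.2, 63.0 and 51.8 CPM in HET and at 49.3, 53.2 and 36.3 CPM in WT. Its groups overlapped because the HET male B70 lay below the WT female B76. Values were lower in both males than in the females of their genotype, while within either sex HET was above WT (0.35 ± 0.06, called by DESeq2). Cdc42ep1, an effector of the small GTPase CDC42, was at 19.5 to 20.6 CPM in HET and at 15.3 to 16.5 CPM in WT. These groups did not overlap, and the DESeq2 adjusted p was 0.0905. With all adults scaled together, the batch 3 HET animals held Cdc42ep1 at 13.6 to 15.4 CPM, beside 15.4 to 16.6 CPM in WT. They held Cplx2 at 1823 to 1969 CPM, beside 1560 to 1645 CPM in WT. Batch cannot be told apart from genotype in these animals.

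In the other direction, Zfp57, a KRAB zinc finger protein that maintains methylation at imprinted loci, was at 5.73, 6.47 and 7.83 CPM in HET (B57, B72, B70) and at 9.17, 9.27 and 10.7 CPM in WT (B58, B76, B78). The groups did not overlap, and DESeq2 called the difference of -0.55 ± 0.09. Coro6, a coronin of the actin cytoskeleton, was at 49.8, 39.5 and 46.0 CPM against 58.1, 55.2 and 65.9 CPM (-0.40 ± 0.08, called by DESeq2). Ltbp4, which binds latent TGF-beta in the matrix, was at 43.4, 40.8 and 38.7 CPM against 48.3, 53.7 and 49.3 CPM (-0.30 ± 0.06, called by DESeq2). For both genes no HET animal of batch 1 reached the lowest WT animal. With all adults scaled together, the batch 3 HET animals held Ltbp4 at 50.2 to 52.0 CPM, beside 48.4 to 53.8 CPM in WT. They held Coro6 at 29.3 to 37.3 CPM, beside 55.4 to 66.1 CPM in WT. Batch cannot be told apart from genotype in these animals. Leng8 was at 198, 169 and 197 CPM against 228, 229 and 233 CPM, again without overlap (-0.29 ± 0.06, called by DESeq2). Genes chosen for the smallest p had to differ between these animals, so their lack of overlap describes the choice.

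**Figure D2:**
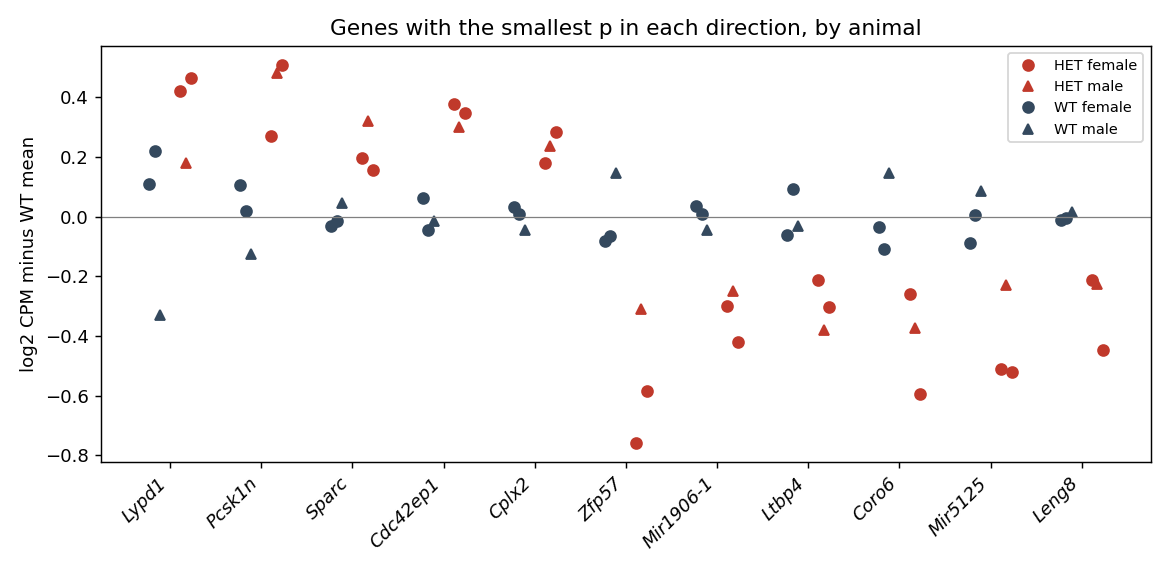
Each point is 1 animal's log2 CPM minus the mean of the WT animals (vertical axis) for genes with the smallest p in each direction, with HET in red and WT in dark blue, circles for females and triangles for males. HET and WT points do not overlap in any gene shown except Lypd1.

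Some of the genes that DESeq2 called lower in HET were long noncoding RNAs, which were not tested as a group. Meg3, the maternally expressed RNA of the imprinted Dlk1-Dio3 region (chr12:109541001-109571726, mm10), was at 2922, 2350 and 2672 CPM in HET (B57, B72, B70) and at 3171, 3513 and 3459 CPM in WT (B58, B76, B78). All HET animals were below all WT animals, and the difference of -0.35 ± 0.08 was called by DESeq2 (adjusted p = 0.00297). Within the sexes it was -0.35 in females and -0.37 in males. Rian and Mirg, transcribed downstream of Meg3 in the same imprinted region, differed by -0.15 ± 0.05 and -0.33 ± 0.08 without overlap, and neither was called. The named features Mir1906-1 (-0.32 ± 0.06) and Mir770 (-0.32 ± 0.07) lie within exons of Meg3, so their reads cannot be separated from those of their host. In the stretch of chr12 that holds this cluster, which was singled out after its values were seen, 29 of 36 tested features were below 0, 13 were lower in HET without overlap (6.02% over all genes) and 0 higher without overlap (5.88% over all genes). Many of these features are small RNAs inside the long transcripts and are not independent of them. Summed over the stretch, the level was 3702, 3041 and 3448 CPM in HET and 4012, 4384 and 4300 CPM in WT. When the 9 adults were scaled together, the batch 3 HET animals held Meg3 at 2896, 2166 and 1737 CPM, below every WT animal as well, although batch cannot be told apart from genotype there. At P22 the HET effect on Meg3 was -0.01 ± 0.19.

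The noncoding RNAs Miat and Snhg11 and the coding gene Srrm2, from other chromosomes, were called lower by DESeq2 as well. Miat, an RNA kept in the nucleus of neurons, was at 467, 388 and 432 CPM in HET (B57, B72, B70) and at 512, 559 and 537 CPM in WT (B58, B76, B78), without overlap (-0.32 ± 0.07, called by DESeq2). Snhg11, which hosts small nucleolar RNAs, was at 1611, 1333 and 1522 CPM against 1724, 1870 and 1949 CPM, without overlap (-0.31 ± 0.07, called by DESeq2). Srrm2, a scaffold protein of splicing speckles, was at 538, 460.7 and 545 CPM against 574, 586 and 671.3 CPM (-0.24 ± 0.06, called by DESeq2). The named feature Mir5125 (-0.42 ± 0.08) lies within Srrm2 on the same strand. For Meg3, Miat, Snhg11 and Srrm2 the lowest value was that of the same HET female, B72. These 4 genes were chosen for description after their values were seen.

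Genes of myelinating oligodendrocytes had higher values in HET throughout. All 24 measured members were above 0, 16 of them at an unadjusted p under 0.05 and 9 without overlap between groups, where 2.96% and 5.88% of all genes were higher by these measures. Members of this and the other lists were measured in the same animals and are not independent of each other, so these counts are not counts of replicates. The list's median log2 fold change was 0.24, beside a median of -0.00045 over all genes. Mbp, myelin basic protein, was at 1558, 1476 and 1919 CPM in HET (B57, B72, B70) and at 1343, 1357 and 1354 CPM in WT (B58, B76, B78). Cnp, an enzyme of the myelin sheath, was at 202, 193 and 228 CPM against 177, 173 and 184 CPM. In both genes the HET animals of batch 1 were above the WT animals, with the male HET animal B70 highest. DESeq2 called both (Mbp 0.28 ± 0.07, Cnp 0.22 ± 0.05). Mag, Mog and Cldn11, which encode an adhesion protein, a surface protein and a tight junction protein of myelin, lay without overlap at 0.24 ± 0.07, 0.17 ± 0.07 and 0.29 ± 0.08. Mobp, at 411, 358 and 503 CPM in HET and 373, 293 and 334 CPM in WT, overlapped (0.34 ± 0.10). The smallest differences of the list were 0.05 ± 0.05 for Enpp2, 0.09 ± 0.09 for Apod and 0.09 ± 0.11 for Gal3st1.

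Olig1 and Olig2, the transcription factors of the whole oligodendrocyte lineage, were called by DESeq2. Olig1 was at 88.3, 89.1 and 96.6 CPM in HET (B57, B72, B70) and at 78.3, 72.8 and 65.6 CPM in WT (B58, B76, B78), and Olig2 at 23.5, 21.9 and 22.9 CPM against 18.0, 19.2 and 16.1 CPM. Neither gene's groups overlapped, and the differences were 0.34 ± 0.07 and 0.36 ± 0.07. The precursor list to which both belong, whose remaining members include the precursor markers Pdgfra and Cspg4, had 10 of 15 members above 0 and a median of 0.04, which was -0.04 between the females alone.

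The size of the oligodendrocyte difference rested in part on the males. The mean log2 CPM over the 24 genes was 5.62, 5.50 and 5.82 in HET (B57, B72, B70) and 5.43, 5.37 and 5.44 in WT (B58, B76, B78). The groups did not overlap, and B70 was the highest. The list median was 0.14 between the females and 0.40 between the males, and leaving out 1 animal at a time gave 0.14 (without B70) to 0.31 (without B72). At P22, which shares no animals with the adults, 18 of 24 members were above 0 with a median of 0.11 in batch 1, and 24 of 24 with a median of 0.16 over both batches, with no member called by edgeR. The batch 3 adult HET animals had lower means, from 4.54 to 4.88 when the 9 adults were scaled together, and a fit of all 9 adults without a batch term gave a median of -0.14. Of the lists for neighbouring regions, which dissection could bring in, the striatal list had 14 of 21 members above 0. Its median was 0.08 (0.04 without B70 or without B78, which both compare the females alone), and the hippocampal list had 5 of 11 above 0. B70 had the highest striatal mean too (3.43, beside 3.14 to 3.29). At P22 the striatal list had 19 of 21 members above 0 in batch 1 (median 0.26) and 18 of 21 over both batches (0.18). Among the batch 1 animals at P22, a HET male had the highest striatal (5.53) and oligodendrocyte means (6.79). The WT female with the next striatal mean (4.65) had the lowest oligodendrocyte mean (6.365). The part of these regions in the oligodendrocyte values was not tested at either age.

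**Figure D3:**
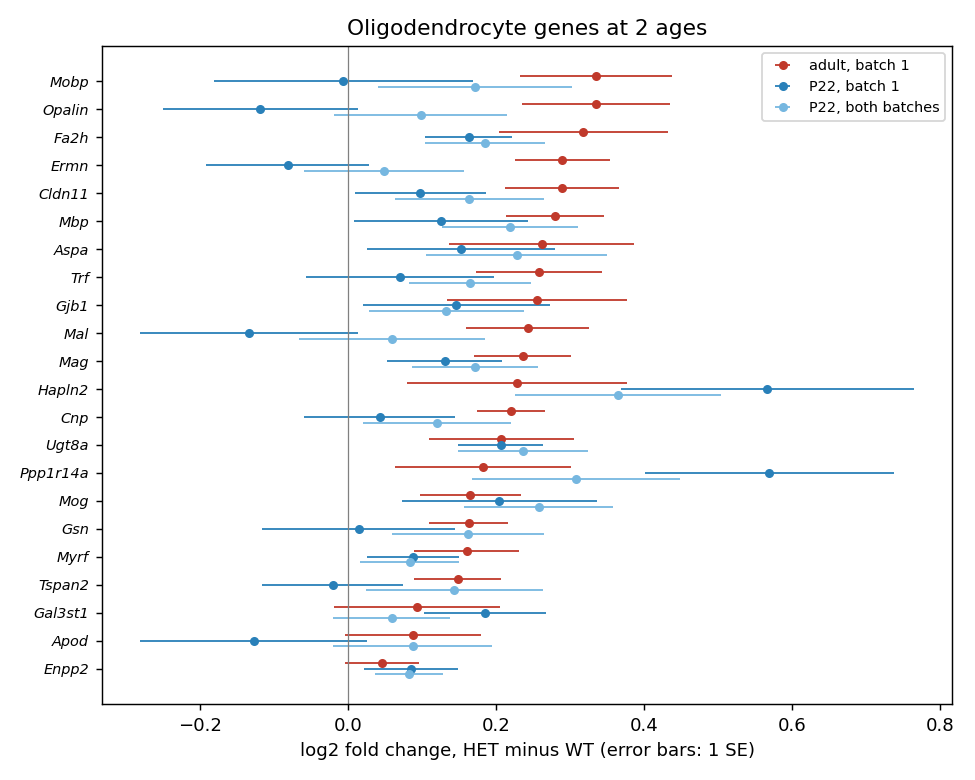
Log2 fold changes of HET minus WT (horizontal axis, error bars 1 SE) of 22 of the 24 oligodendrocyte genes in adults of batch 1 (red), P22 animals of batch 1 (dark blue) and P22 animals of both batches (light blue). All 22 adult points and all 22 points of both P22 batches lie above 0, against 16 of 22 in batch 1 alone at P22.

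MYT1L binds the motif AAAGTT. The letters AAAGTT were searched on either strand in the promoters of this list, taken as the 250 bases before each start site that RefSeq annotates in GRCm38.p6. They were found in 3 of 27 promoters (11.1%) of the 17 genes of the list that had an entry, beside 4089 of 32851 promoters (12.4%) of all genes. Cnp held 3 matches and is shown as a member called by DESeq2 whose promoter had the motif (chr11:100574689-100574938, forward strand), with the matches in capitals.
Cnp promoter: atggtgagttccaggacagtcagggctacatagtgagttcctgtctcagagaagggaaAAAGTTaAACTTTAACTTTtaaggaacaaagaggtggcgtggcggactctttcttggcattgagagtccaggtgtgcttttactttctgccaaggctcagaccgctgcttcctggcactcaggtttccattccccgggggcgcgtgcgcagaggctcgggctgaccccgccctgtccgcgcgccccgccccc
A match describes the letters of the window and does not show that the protein binds there.

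Other glia had smaller median differences. Astrocyte genes had 16 of 22 members above 0, with a median of 0.04 (0.09 without B70, which compares the females alone). Of these genes 7 were higher at an unadjusted p under 0.05 and 7 were higher without overlap, where 2.96% and 5.88% of all genes were. The mean log2 CPM of the astrocyte list was 6.82 to 6.84 in HET and 6.76 to 6.79 in WT, without overlap. Over both P22 batches 22 of 22 members were above 0, with a median of 0.07. Slc7a10, an astrocytic transporter of D-serine, was at 40.1, 37.4 and 39.5 CPM in HET and at 35.6, 32.2 and 34.9 CPM in WT without overlap (0.19 ± 0.06, adjusted p = 0.617). Glul, glutamine synthetase, was at 1842, 1949 and 1872 CPM against 1778, 1723 and 1785 CPM, likewise without overlap (0.10 ± 0.04). Gfap, the intermediate filament that reactive astrocytes raise, differed by 0.01 ± 0.15. Microglial genes had 18 of 20 members above 0 with a median of 0.10, and Cx3cr1, the fractalkine receptor, differed by 0.16 ± 0.05 with overlapping groups. Without B78, which compares the females alone, the microglial median was 0.06.

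Neuronal lists were close to the background, apart from the deep cortical layers. Presynaptic genes had 13 members above 0 and 21 below (median -0.01), genes of the glutamatergic postsynapse 21 and 24 (median -0.00484), GABA receptors 6 and 9 (median -0.00491) and interneuron genes 17 and 14 (median 0.02). Upper layer genes had 9 above and 11 below (median -0.02, and 0.02 without B70, which compares the females alone). Of 25 deep layer genes, 19 were above 0 with a median of 0.15, 7 higher and 2 lower at an unadjusted p under 0.05. Over all genes 2.96% were higher and 4.06% lower by this measure. Hs3st4, a heparan sulfate sulfotransferase of layer 6 neurons, was at 52.8, 48.9 and 52.7 CPM in HET (B57, B72, B70) and at 44.2, 42.9 and 40.4 CPM in WT (B58, B76, B78). The groups did not overlap, and DESeq2 called the difference (0.28 ± 0.06). Tle4 and Syt6, a corepressor and a synaptotagmin of layer 6 neurons, lay without overlap at 0.18 ± 0.06 and 0.29 ± 0.09. Etv1, a factor of layer 5 neurons, went the other way, at 58.7, 55.9 and 59.1 CPM against 65.6, 67.2 and 66.6 CPM without overlap (-0.20 ± 0.05, adjusted p = 0.529). Cplx3, a complexin found in subplate neurons, rested on B70, which had 23.1 CPM beside 10.2 to 14.2 CPM in the other 5 animals. The deep layer median was 0.04 without B78, which compares the females alone. At P22 the deep layer median was -0.09 in batch 1 and -0.03 over both batches, each with 8 of 25 members above 0. When the 9 adults were scaled together, the batch 3 HET animals had deep layer means of 3.29, 3.44 and 3.77, below the 4.34 to 4.45 of the WT animals. They held Hs3st4 at 18.2 to 23.5 CPM, beside 40.6 to 44.3 CPM in WT. Batch cannot be told apart from genotype in these animals. Ppp1r1b, the dopamine-regulated phosphatase inhibitor DARPP-32 of striatal and layer 6 neurons, was at 117, 142 and 141 CPM in HET and at 113, 104 and 109 CPM in WT, and DESeq2 called it (0.29 ± 0.07).

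Ion channel lists held a few genes without overlap: 0 higher and 2 lower of 15 calcium channel genes, 1 and 3 of 16 sodium channel genes, and 1 and 5 of 55 potassium channel genes. Over all genes these shares were 5.88% higher and 6.02% lower. The channel genes named here had the smallest p of their lists, so their lack of overlap describes the choice. Of 15 calcium channel genes 12 were below 0 (median -0.07). These are long genes, with a median exon length of 9942 bases beside 3792 bases over all genes. Genes with long exons mostly had lower values, as given below, and the part of exon length here was not tested. Cacna1b, the pore of N-type calcium channels at presynaptic terminals, was at 128, 125 and 128 CPM in HET and at 145, 138 and 147 CPM in WT (-0.18 ± 0.04, adjusted p = 0.529). Sodium channel genes had 7 above 0 and 9 below. Scn4b, an auxiliary sodium channel subunit, was at 219, 214 and 212 CPM in HET against 199.7, 177 and 185 CPM in WT (0.20 ± 0.05), whereas Scn7a, a sodium channel related to the voltage-gated family, was at 3.09, 2.84 and 2.12 CPM against 3.93, 4.08 and 3.37 CPM (-0.51 ± 0.13). Both had groups that did not overlap. Potassium channel genes had 26 above 0 and 29 below, with Kcnt2, a sodium-activated potassium channel, at 24.41 to 25.03 CPM in HET and 28.7 to 31.4 CPM in WT (-0.27 ± 0.06).

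Lists of short and of long genes lay on opposite sides of 0. Genes of oxidative phosphorylation had 70 of 74 members above 0 (median 0.05), 23 of them higher without overlap, and cytosolic ribosomal protein genes had 75 of 77 above 0 (median 0.06), 22 of them higher without overlap, beside 5.88% of all genes. Ndufb2, a subunit of respiratory complex I, was at 60.6, 65.3 and 61.5 CPM in HET and at 53.0, 55.7 and 55.6 CPM in WT (0.19 ± 0.05). Autism risk genes had 43 of 52 members below 0 (median -0.06), 7 of them lower without overlap, beside 6.02% of all genes. The median exon length of the ribosomal list was 1770 bases, that of the autism list 12216.5 bases and that of the calcium channel list 9942 bases, beside 3792 bases over all genes. Over all genes, split by exon length into 5 bins of nearly equal size, the median log2 fold change went from 0.03 in the shortest to -0.03 in the longest, and genes at an unadjusted p under 0.05 were 153 higher and 94 lower in the shortest bin but 55 higher and 289 lower in the longest. In single animals the genotypes were not separated by this trend: relative to the mean of the WT animals, the longest bin lay at -0.007, -0.048 and -0.052 in HET (B57, B72, B70) and at -0.027, 0.015 and 0.012 in WT (B58, B76, B78), with the WT female B58 among the HET animals. The part of exon length in these lists' values was not tested.

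The fold changes of immediate early genes, which neurons induce within minutes of firing, were set by the males. Of 33 genes 26 were below 0 with a median of -0.25, but this median was 0.20 between the females and -1.43 between the males. Fos was at 25.1, 30.9 and 22.6 CPM in HET (B57, B72, B70) and at 10.6, 18.9 and 98.8 CPM in WT (B58, B76, B78). Arc, which encodes a synaptic protein that is induced by activity, was at 256, 385 and 170.0 CPM against 69.9, 297 and 1252 CPM. The male WT animal B78 was the highest in both genes. Npas4, a factor induced by calcium entry, was at 34.2, 38.9 and 21.3 CPM against 19.4, 21.1 and 80.3 CPM. Between the females alone Npas4 was higher in HET by 0.85, and edgeR called it there (adjusted p = 0.0313), and the fits without B78 (adjusted p = 0.0214) and without B70 (adjusted p = 0.0140) are this same comparison of 4 females with another estimate of the spread. In the fit without B70 the antiproliferative gene Btg2 was called as well (0.97, adjusted p = 0.0390). With all 6 animals Npas4 differed by -0.07 ± 0.45 and Btg2 by 0.12 ± 0.40, neither called. Fibroblast and meningeal genes moved with the same animal: their mean log2 CPM was 2.82 in B78 and 1.60 to 2.09 in the other 5, and the list median was -0.39 over all animals and 0.17 without B78. Without B78, which leaves no male WT animal, the immediate early median was 0.19.

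**Figure D4:**
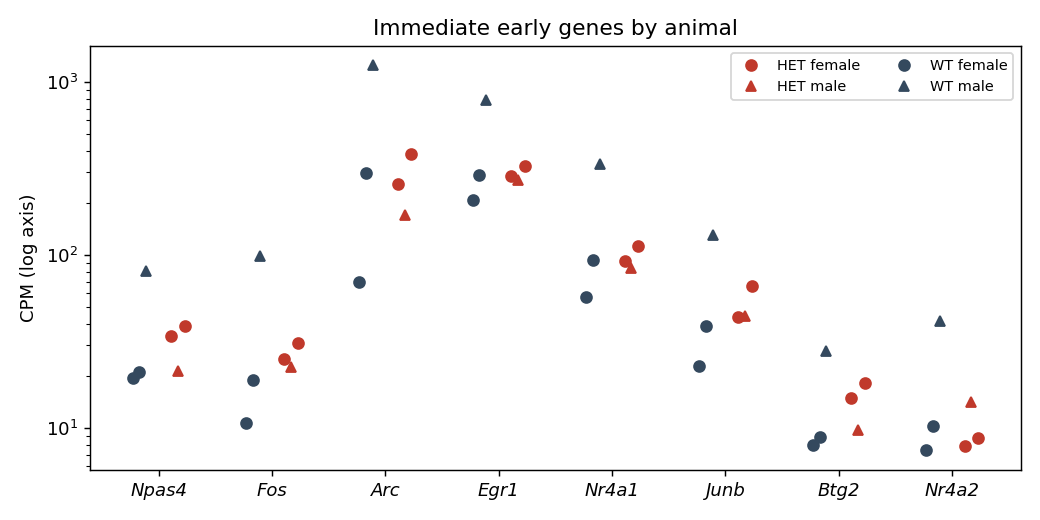
CPM (vertical log axis) of 8 immediate early genes in each adult of batch 1, with HET in red, WT in dark blue, circles for females and triangles for males. In Npas4, Fos and Arc the WT male B78 is highest, at 80.3, 98.8 and 1252 CPM.

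Vascular genes mostly had lower values in the adult HET animals, and the opposite sign at P22. Of 19 endothelial genes 17 were below 0 in adults (median -0.15), but 18 of 19 were above 0 at P22 in batch 1 (median 0.25) and 19 of 19 over both batches (median 0.15). Slc2a1, the glucose transporter of the blood-brain barrier, was at 71.9, 78.9 and 80.2 CPM in HET (B57, B72, B70) and at 82.3, 88.5 and 108 CPM in WT (B58, B76, B78). The adult groups did not overlap (-0.27 ± 0.06, adjusted p = 0.529), the P22 difference was 0.25 ± 0.07 in batch 1 and 0.08 ± 0.07 over both batches, and the difference between both ages was not called (adjusted p = 0.952). The adult endothelial median was -0.03 without B70, which compares the females alone. The list mean of B70 was 3.72, the lowest of the 6 animals, beside 4.01 to 4.13 in the others. The endothelial genes of B70 and the fibroblast genes of B78 thus lay apart in both males, and their part in other results was not tested.

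**Figure D5:**
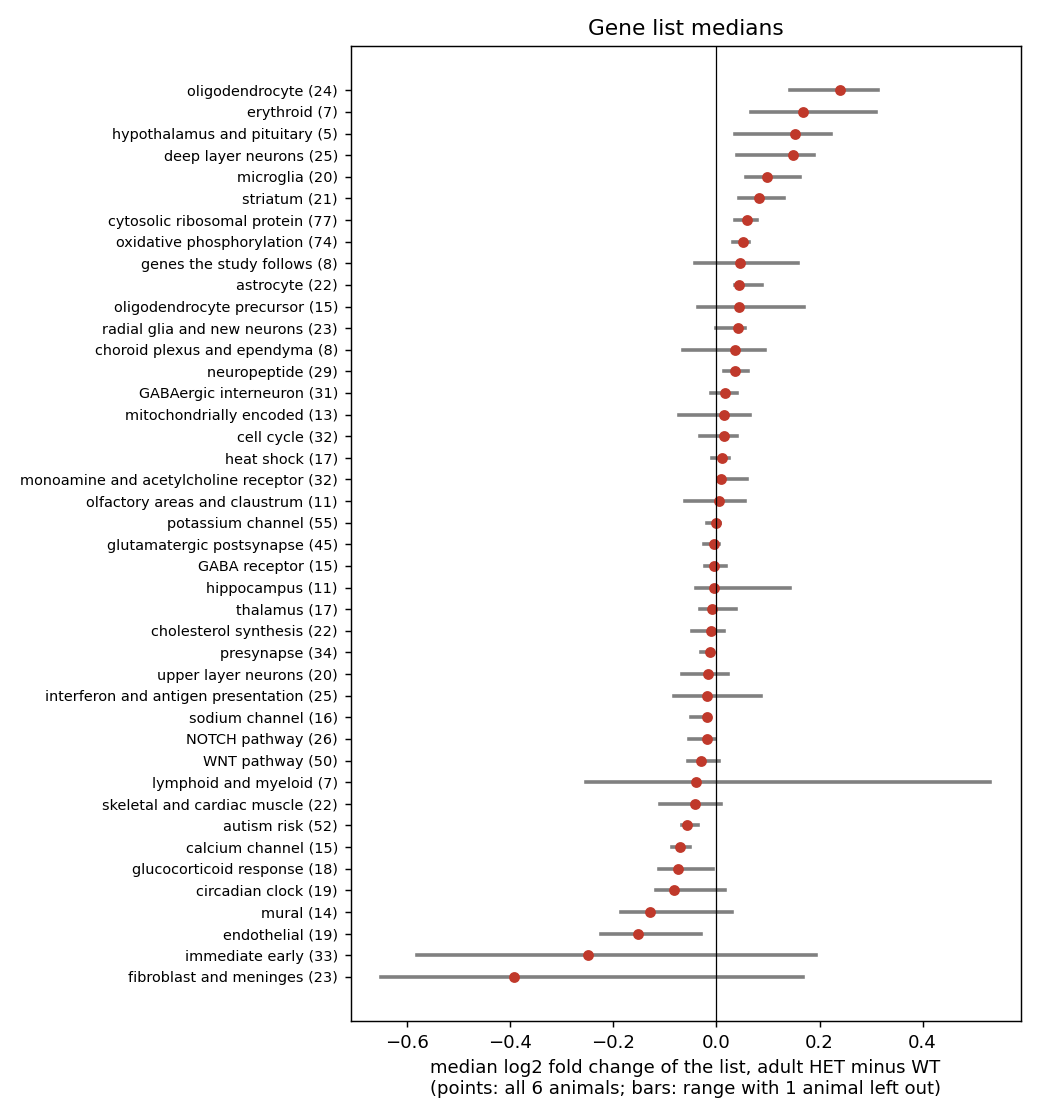
Median log2 fold change, adult HET minus WT (horizontal axis), of 42 gene lists with at least 5 genes tested, with the number of genes in brackets; points use all 6 animals and bars span the values with 1 animal left out. The oligodendrocyte list stays above 0 (0.14 to 0.31), as do others such as the microglial (0.06 to 0.16) and cytosolic ribosomal protein (0.04 to 0.08) lists. The calcium channel list stays below 0 (-0.09 to -0.05), while the immediate early list spans -0.58 to 0.19.

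The adult differences were last set beside those at P22, an age with the same genotypes and batch but other animals. At P22, 0% of 18788 genes were called in batch 1 (smallest adjusted p = 0.312, 1018 genes at an unadjusted p under 0.05, 22 called by DESeq2). For the difference of the HET effect between adult and P22 animals, 0% of 19534 genes were called by edgeR, with 880 at an unadjusted p under 0.05 and 5 called by DESeq2. Of the 31 genes that DESeq2 called in adults, 19 had the same sign at P22 in batch 1, where 48.3% of all genes did. Over both P22 batches 24 had the same sign, but the share over all genes was not counted there and need not be 48.3%. Some of the 31 are not independent: Mir1906-1 and Mir770 lie within exons of Meg3, and Gm27998 overlaps an exon of Miat. Across 13517 genes, which are not independent replicates, Pearson's correlation of the adult and P22 fold changes was -0.02 in batch 1 and 0.15 with both P22 batches. Among the called genes, Sparc (0.15 ± 0.04), Cplx2 (0.15 ± 0.05) and Zfp57 (-0.22 ± 0.10) had the adult sign over both P22 batches, whereas Lypd1 (-0.08 ± 0.07) and Pcsk1n (-0.12 ± 0.17) did not. In batch 1 alone at P22, Pcsk1n had the adult sign (0.35 ± 0.11) and Lypd1 did not (-0.16 ± 0.05).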

How the data were processed

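Libraries were made from prefrontal cortex with a strand-keeping dUTP protocol and sequenced in pairs, and per the submitters' processing notes STAR, mm10 and DESeq2 were used. As deposited, the values are raw counts of reads for each gene in each library, next to gene coordinates and exon lengths. Which tool and annotation the authors counted with, and with what strand setting, is not given in the sources used here, so reads of overlapping genes were not taken as separable. The deposited normalised counts and the authors' table of comparisons (fold changes and p-values) were not used.

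Both libraries of an animal were summed and the animal, a separate mouse per the labels, was the replicate. Batch 1 adults (3 HET, 3 WT) were fitted by edgeR 4.0.16 under R 4.3.3 (quasi-likelihood F test, TMM, filter on low counts, sex as covariate, 2-sided) at a Benjamini-Hochberg adjusted p under 0.05. DESeq2 1.42.0 and limma 3.58.1 (voom) served as alternatives, and adjusted p-values are edgeR's unless DESeq2 is named. P22 and the difference between ages were tested in the same way. Log2 CPM used a prior count of 2. The scripts were tested on simulated data.

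The members and the 43 gene lists were chosen with earlier results of these data known. Named were Myt1l, its relatives and genes the study follows, the 6 genes per direction with the smallest p and a mean log2 CPM of at least 1 (none being called), leaving out predicted genes, Xist, pseudogenes and genes of the Y chromosome (5 such genes among the 40 smallest p), and up to 2 members of a list. Other genes were chosen after their values were seen, among them the remaining myelin genes, Meg3, Rian, Mirg, Mir770, Miat, Snhg11, Srrm2, Fos, Arc, Npas4, Btg2, Tle4, Syt6, Cplx3, Glul and Gfap. A few genes that the rule names are not reported here or drawn.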

Additional observations from a re-analysis of the deposited data

Results flagged for a closer look

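Slc2a1, the glucose transporter of brain endothelium, was picked among the named genes because in batch 1 every HET animal was below every WT animal in adults and above every WT animal at P22. Its log2 fold change was -0.27 in adults and 0.25 at P22 in batch 1 (0.08 ± 0.07 over both P22 batches), and the adult effect minus the P22 effect was -0.46 ± 0.13 in edgeR's quasi-likelihood test, with an adjusted p of 0.952. Other genes differed between ages by more of their standard error at the same adjusted p, among them Piezo1 (-0.84 ± 0.15) and Flt1 (-0.51 ± 0.11).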

How the results depend on the processing

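The adult comparison had 41.94 to 60.98 Mreads per animal and 3 animals per group, and what depth or group size withheld from the calls was not tested. The count of genes called in adults was 0 by edgeR under every scaling, filter and covariate setting tried, and was 31 with DESeq2 and 1 between females only. Leaving out 1 animal gave 0 to 2 called genes, 2 without B70 and 1 without B78, which like the females-only fit compare the same 4 females. A replicate block, with 12 libraries in limma voom, library number fixed and animal random, called 162 genes (71 higher), with a consensus correlation of 0.452 between libraries of an animal. Its residual degrees of freedom count libraries, not animals, and the shared number names a library only. The block left Myt1l uncalled at 0.08 (adjusted p = 0.217). For Myt1l, leaving out 1 animal gave 0.05 to 0.10, and the fit of all 9 adults without a batch term reversed it to -0.0362 ± 0.105. For the difference between ages, DESeq2 called 5 genes and the absence of a low-count filter 10, with 0 for each animal left out. At P22, DESeq2 called 22 genes and both batches together 1, with 0 for each animal left out. Of 1751 values of named genes under alternatives, 44 had the other sign, 17 of these in the fit of all 9 adults. List medians were less stable: 115 had the other sign, with 13 of 43 lists in each of the females-only fit and the fits without B70 and without B78, and 15 in that of all 9 adults. The Myt1l level of each library, added after seeing the data, was 232.0 to 249.9 CPM in HET and 210.2 to 238.8 CPM in WT of batch 1.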
